A study of Saccharomyces cerevisiae with 8 samples.

Results

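The 6 genes SNZ1, SNZ2, SNZ3, SNO1, SNO2 and SNO3 make up the vitamin B6 synthesis family of budding yeast, Saccharomyces cerevisiae. They were chosen by gene name in the scanner files, where each is read by 1 probe, and they are 6 of the 6256 genes measured. Transcript levels came from 8 one-colour arrays, 4 of the pressure-sensitive mutant strain a924E1 and 4 of KA31a, its parent. Both strains had grown at 30 °C in YPD, a rich medium of yeast extract, peptone and 2% glucose, for 48 h, and no pressure treatment is named. The mutation of a924E1, any alleles that both strains share, and the growth stage reached at 48 h are not given in the sources used here. The mutant is represented by 1 strain, so other changes that this strain may carry go with the label. The comparison asks which transcripts differ between the strains in unpressurised 48 h cultures.

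Snz proteins are the synthase subunits that assemble pyridoxal phosphate, the active form of vitamin B6, and Sno proteins are the glutaminases that release ammonia from glutamine for that synthesis. Each SNZ gene lies next to its SNO gene and is transcribed away from it, by the systematic names and by the gene order of reference assembly R64. SNZ1 and SNO1 are on chromosome XIII, SNZ2 and SNO2 on chromosome XIV, and SNZ3 and SNO3 on chromosome VI. SNZ1 is known as a gene whose transcript accumulates as cultures enter stationary phase, and SNZ1 and SNO1 are targets of Gcn4, the activator of amino acid synthesis genes. SNZ2 and SNZ3 lie beside the thiamine synthesis genes THI12 and THI5 and are known to respond to thiamine. SNZ2 and SNZ3 are nearly identical in sequence, and so are SNO2 and SNO3. Probes for such copies can bind both transcripts, so the values within each of these pairs are uncertain for the single gene and are not independent of each other.

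The arrays differed widely in brightness. Median spot signal over local background ran from 5 to 112 intensity units on the mutant arrays and from 15 to 182 units on the parent arrays. Below, a gene is called above background where the signal-to-noise ratio reached 3 in each of its 2 spots. By that measure 602 to 4704 probes passed per mutant array and 1534 to 5272 per parent array. Mutants 5 and 7 and parent 8, the 3 arrays scanned at the higher gain of 700, were the dimmest. The strains occupied different columns of the 1 slide, and so an effect of the column and one of the strain cannot be told apart. Mutants 1 and 3 correlated at r = 0.996 across probes, against 0.932 to 0.965 for the other mutant pairs. Among parents, 6 and 8 had the smallest root mean square log2 difference, 0.20, over probes above background on all 8 arrays. By r, parents 4 and 6 were closer, at 0.989 against 0.985 for 6 and 8. The series' design calls the 4 samples of each strain independent, and n is counted so; with mutants 1 and 3 averaged and parents 6 and 8 averaged, the 4 calls below held. With 4 arrays a strain, precision is limited throughout, and levels are relative to the other transcripts of the same culture. In bulk RNA, a smaller share of cells that express a gene and a lower level in every cell cannot be told apart.

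SNZ1, SNO1, SNZ2 and SNZ3 were lower in the mutant, and SNO2 and SNO3 did not pass the test. As the median of 4 arrays, signal relative to the array median was 43.0 in the parent and 12.3 in the mutant for SNZ1, and 2.01 and 0.482 for SNO1. It was 1.16 and 0.357 for SNZ2 and 1.43 and 0.645 for SNZ3. The log2 differences below carry an offset that shrinks the change of dim probes, so they do not rank these genes by size of change. By limma, 4 of the 6 genes passed at an adjusted p under 0.05 and were lower, and 0 were higher, with 0 higher also at an unadjusted p under 0.05. Of all 6256 probes, 14.0% passed as lower and 12.7% as higher, 26.6% in all. For the same 4 genes every mutant value lay below every parent value, which held for 14.7% of all probes, and 29.9% of probes did not overlap in one direction or the other. The median log2 difference, mutant minus parent, was -0.58 over the 6 genes and 0.05 over all probes. Since SNZ2 and SNZ3 may share their signal, the 4 lower genes stand for no more than 3 separate measurements.

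SNZ1 gave a strong signal in both strains. Its signal over local background, averaged over the 2 spots, was 958.5, 1448, 305 and 53 intensity units on mutants 1, 3, 5 and 7. On parents 2, 4, 6 and 8 it was 4238.5, 7589.5, 2547 and 663 units. Parent 8 is a dim array, and yet its SNZ1 signal exceeded that of mutants 5 and 7, which were scanned at the same gain. Divided by the median signal of its own array, SNZ1 was at 11.7, 12.9, 19.1 and 10.6 on the mutant arrays and at 26.0, 41.7, 47.2 and 44.2 on the parent arrays. These ratios did not overlap between the strains.

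**Figure D1:**
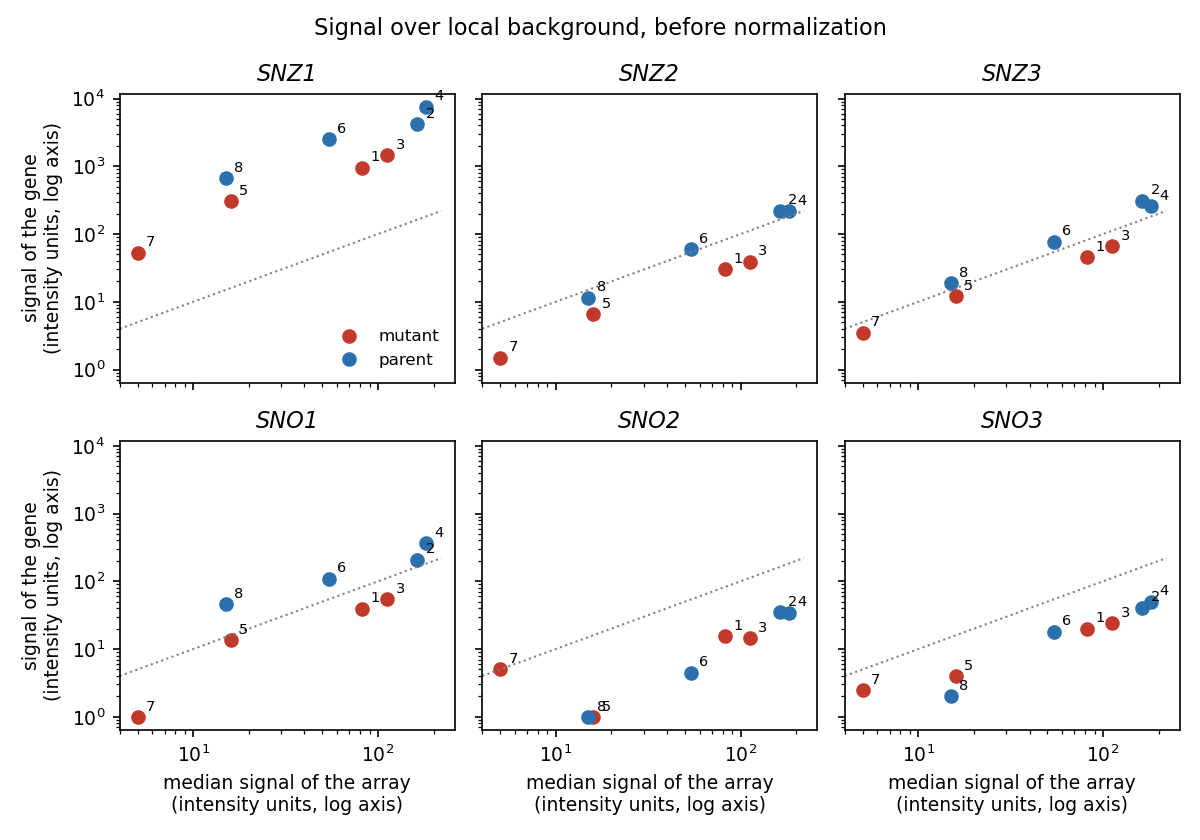
Signal of each gene over local background (vertical, intensity units, log axis) against the median signal of the same array (horizontal, intensity units, log axis), before normalization. Points are arrays, labelled by sample number, blue for parent and red for mutant; the dotted line marks a gene equal to its array's median, and values under 1 are drawn at 1. SNZ1, SNO1, SNZ2 and SNZ3 lie lower in the mutant at a like array brightness, while SNO2 and SNO3 of both strains follow 1 course apart from the dimmest arrays.

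For the test, values were corrected for background with an offset of 50 units, taken to log2 and quantile-normalized. On this scale SNZ1 stood at 9.21, 9.28, 9.41 and 8.97 on mutants 1, 3, 5 and 7. It stood at 10.68, 11.39, 11.22 and 10.96 on parents 2, 4, 6 and 8. The highest mutant value was well below the lowest parent value, and the gene was above background on all 8 arrays. The mean log2 level was 9.22 ± 0.18 in the mutant and 11.06 ± 0.31 in the parent (SD, n = 4 arrays each). The difference was -1.84 ± 0.16 (SE, limma adjusted p = 1.42e-05), or 3.59-fold lower, with a 95% confidence interval from -2.19 to -1.50. This was the 31st most negative difference of the 6256 probes and the 7th of the 582 probes above background on all 8 arrays. Since the offset shrinks the change of dim probes, a rank among all probes favours bright ones such as SNZ1. Within the 4 rows of the slide, each with 1 mutant and 1 parent array, the difference ran from -2.11 to -1.47. The call ended when arrays were scaled to a common median in place of quantile normalization (adjusted p = 0.171), where the estimate was -1.98.

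SNO1 encodes the glutaminase partner of Snz1, and its probe was near background in the mutant. Signal over background was 39.5, 54, 13.5 and -0.5 units on mutants 1, 3, 5 and 7, and 209, 365, 109 and 46 units on parents 2, 4, 6 and 8. The probe was above background in 2 mutant and all 4 parent samples. Parent 8, the dimmest parent array, read about as much SNO1 as mutants 1 and 3, whose arrays were several times brighter overall. The duplicate spots disagreed on some arrays, with 327 and 91 units on parent 2 and 22 and 5 on mutant 5. Normalized log2 levels were 6.44, 6.44, 6.70 and 5.89 in the mutant and 6.97, 7.47, 7.42 and 7.77 in the parent. These did not overlap. On the log2 scale the fall in SNO1 was significant by limma (adjusted p = 0.00238), with a difference of -1.04 ± 0.19 (SE, 4 arrays of each strain). The offset compresses dim genes, and with an offset of 10 the difference was -1.64 (adjusted p = 0.00274). With 75th percentile scaling and with median scaling the call ended (adjusted p = 0.524 and 0.154), at estimates of -0.80 and -0.86. Within gain 700, which has 1 parent array, it did not pass at -1.48 (adjusted p = 0.0990).

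**Figure D2:**
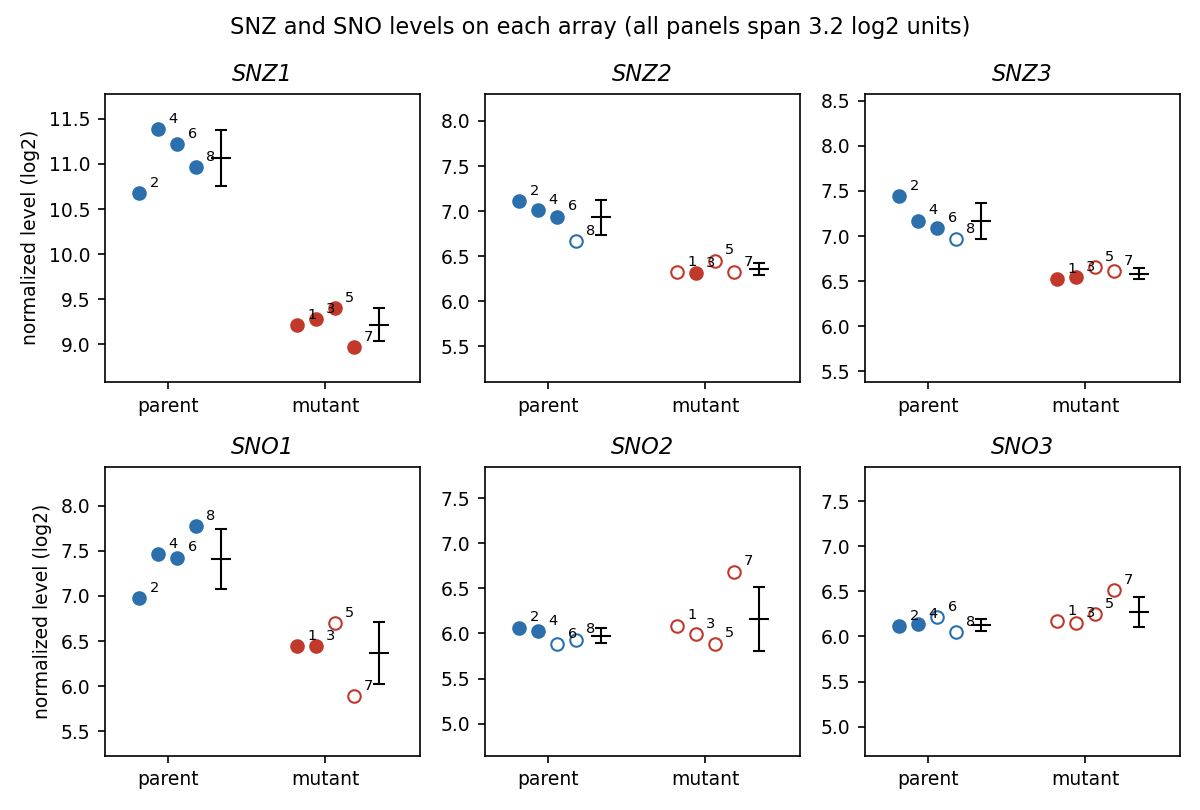
Normalized log2 level (vertical) of the 6 genes on each array, parent in blue and mutant in red, with the sample number beside each point. Filled points were above background in both spots and open points were not, and bars give the mean ± SD of 4 arrays. For SNZ1, SNO1, SNZ2 and SNZ3 all mutant points lie below all parent points, whereas the points of SNO2 and SNO3 are mixed.

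SNZ2 and SNZ3 showed almost the same pattern as each other. SNZ2 signal was 30, 39, 6.5 and 1.5 units on mutants 1, 3, 5 and 7 and 222, 219.5, 60 and 11.5 units on parents 2, 4, 6 and 8. SNZ3 signal was 45.5, 66, 12 and 3.5 units on the same mutant arrays and 311, 261, 77.5 and 19 units on the parent arrays. On mutants 5 and 7 and on parent 8 neither gene was above background. SNZ2 was above background on 1 mutant and 3 parent arrays, and SNZ3 on 2 mutant and 3 parent arrays. Relative to the median of its array, SNZ2 was at 0.37, 0.35, 0.41 and 0.30 in the mutant and at 1.36, 1.21, 1.11 and 0.77 in the parent. SNZ3 was at 0.55, 0.59, 0.75 and 0.70 in the mutant and at 1.91, 1.43, 1.44 and 1.27 in the parent. For both genes the highest mutant ratio was below the lowest parent ratio.

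The normalized log2 level of SNZ2 was 6.35 ± 0.07 in the mutant and 6.93 ± 0.19 in the parent (SD, n = 4 each). It fell by 0.58 ± 0.11 (SE, limma adjusted p = 0.00340). SNZ3 was at 6.58 ± 0.06 in the mutant and 7.17 ± 0.20 in the parent, and fell by 0.58 ± 0.12 (limma adjusted p = 0.00355). No fold is given for either gene, since most or some of the mutant values were at background. Neither gene's values overlapped between the strains. Both differences were larger with an offset of 10, at -0.94 for SNZ2 and -0.90 for SNZ3. On the arrays of gain 600 alone both fell by 0.70 (adjusted p = 0.00342 and 0.0120). Within gain 700 they were at -0.28 and -0.33 and did not pass, and the calls also ended with 75th percentile and median scaling. In that gain neither SNZ2 nor SNZ3 was above background on any of the 3 arrays.

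SNO2 and SNO3 were read at the edge of detection: parents 2 and 4 were the only arrays on which either was above background. SNO2 signal was 15.5, 14.5, 0 and 5 units on mutants 1, 3, 5 and 7 and 35.5, 34.5, 4.5 and 1 units on parents 2, 4, 6 and 8. SNO3 signal was 20, 24, 4 and 2.5 units on the mutant arrays and 41, 50, 18 and 2 units on the parent arrays. Relative to the median of the array, SNO3 was at 0.24 and 0.21 on mutants 1 and 3 and at 0.25 and 0.27 on parents 2 and 4. Those 4 ratios lie close together, unlike those of SNZ2 and SNZ3 on the same arrays.

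The normalized difference of SNO2 was 0.19 (95% interval from -0.16 to 0.54, limma adjusted p = 0.437), and that of SNO3 was 0.14 (from -0.10 to 0.38, adjusted p = 0.388). The strains overlapped for both genes. Mutant 7, the dimmest array, had the highest value of both, at 6.68 for SNO2 and 6.51 for SNO3. Without it the differences were 0.01 and 0.06. Of the 316 probes that, like these, were above background on no mutant array and on 2 parent arrays, 30.4% read higher in the mutant and the median difference was -0.10. Of those probes 28 passed as lower and 0 as higher by limma, beside 14.0% and 12.7% of all probes. This class was picked by detection in the parent only, which by itself tilts it towards lower mutant readings, so it is no neutral reference. Both intervals hold no change as well as changes in either direction, so at this brightness a change of SNO2 or SNO3 cannot be told from none. No fold is given.

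**Figure D3:**
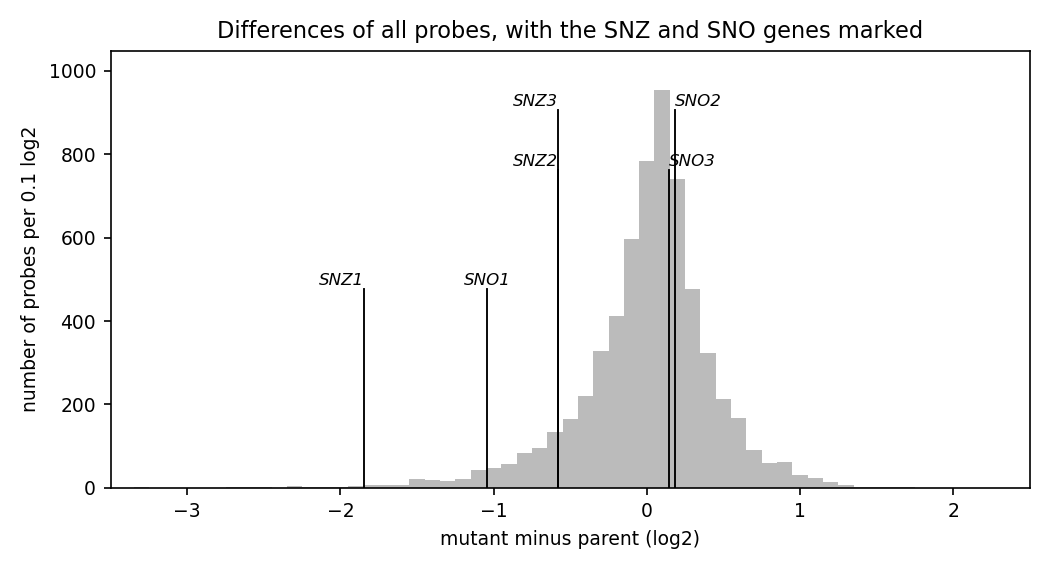
Number of probes (vertical, per 0.1 log2 unit) by their difference between mutant and parent (horizontal, log2), over all 6256 probes. Vertical lines mark the 6 genes: SNZ1 at -1.84 and SNO1 at -1.04 lie in the lower tail, SNZ2 and SNZ3 share a place at -0.58, and SNO2 and SNO3 lie near the peak.

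The strain differences of the 6 genes were compared with each other for 9 pairs, through the log2 difference of both probes on each array and an exact two-sided permutation test of 4 against 4 arrays. The smallest p that this test can give is 0.0286. Within the chromosome XIII pair, SNZ1 minus SNO1 was 2.85 ± 0.17 in the mutant and 3.65 ± 0.32 in the parent (SD, n = 4 each), a difference of -0.80 (95% interval from -1.25 to -0.36, exact p = 0.0286, adjusted over 9 pairs 0.0367). This one depended on the offset: with an offset of 10 it was -0.32 (adjusted exact p = 0.579), since the smaller offset moved SNO1 from -1.04 to -1.64 and SNZ1 from -1.84 to -1.97. Within gain 700 it was -0.30.

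The contrast of SNZ1 with its paralogs also depended on the offset. SNZ1 minus SNZ2 differed between strains by -1.27 (95% interval from -1.76 to -0.77), and SNZ1 minus SNZ3 by -1.26 (from -1.86 to -0.67), each with an exact permutation p of 0.0286, or 0.0367 adjusted. With an offset of 10 they were -1.02 and -1.07 (adjusted exact p = 0.0514 for both), and with either scaling they did not pass. SNZ2 and SNZ3 were close to background in the mutant, where the offset holds values up, and SNZ1 was not. Before the offset, median signal relative to the array median was 43.0 in the parent and 12.3 in the mutant for SNZ1. It was 1.16 and 0.357 for SNZ2, and 1.43 and 0.645 for SNZ3. These contrasts therefore do not show that SNZ1 fell more than its paralogs. The 4 pairs that set SNO2 or SNO3 against SNO1 or their SNZ partner are not given a size, since neither was above background in the mutant.

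No difference was detected between SNZ2 and SNZ3, the near-identical copies. SNZ2 minus SNZ3 was -0.23 in the mutant and -0.24 in the parent, a difference of 0.00 with a 95% interval from -0.12 to 0.13 (exact p = 0.943). SNO2 and SNO3 could not be compared in this way, being at background in the mutant. The root mean square distance between the centred log2 profiles of SNZ2 and SNZ3 over the 8 arrays was 0.06, and 2 of all other probes lay closer to SNZ2 than SNZ3 did. Between SNZ1 and SNZ2 the distance was 0.68, and between SNZ1 and SNO1 it was 0.46, with 122 probes closer to SNZ1 than SNO1 was. These distances describe the profiles and do not separate shared transcription from shared binding of the probes.

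By the same distance, genes with like profiles were sought among the 1534 other probes that were above background throughout at least 1 strain. Those nearest to SNZ1 were RPS27A and RPS25B, which encode proteins of the small ribosomal subunit, and FBA1, the glycolytic aldolase, at distances of 0.21 to 0.24. Their own differences were -1.93, -1.76 and -1.68. Nearest to SNO1 were ZRT3, a vacuolar zinc exporter, SIP18, a desiccation-induced hydrophilin, and RPL14A of the large ribosomal subunit, at 0.16 to 0.19. Nearest to SNZ2 were GTF1, CCC1 and EAF3, and to SNZ3 EAF3, PTA1 and GTF1, at 0.04 to 0.09. GTF1 is a subunit of the mitochondrial amidotransferase that makes glutaminyl-tRNA, and CCC1 is a vacuolar iron transporter. Nearest to SNO2 were GRE2, BOI2 and BZZ1, and to SNO3 PRE6, GPA2 and NCP1, at 0.09 to 0.13, with differences between -0.0019 (BOI2) and 0.23 (GPA2). All of these points share the same 8 arrays, and a profile here includes the strain difference itself. SNO2 and SNO3 were above background on parents 2 and 4 only, so their nearest genes were matched largely on values at background.

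Of 6 other measured genes of vitamin B6 metabolism, 1 fell, 1 rose and 4 did not pass (limma), with a median of -0.21. That is 16.7% lower and 16.7% higher, against 14.0% and 12.7% of all probes. Counts this small do not set the list apart. BUD16, the pyridoxal kinase of the salvage route, had a signal of 104, 124, 35 and 10.5 units on parents 2, 4, 6 and 8 and of 16.5, 19, 0.5 and 2 units on mutants 1, 3, 5 and 7. It passed as lower (limma adjusted p = 0.00985). It was above background on 3 parent arrays and 0 mutant arrays, so no size is given, and the call ended with mutants 1 and 3 averaged and parents 6 and 8 averaged (adjusted p = 0.0640). YPR127W, a pyridoxal reductase, rose by 0.49 ± 0.14 (limma adjusted p = 0.0210), was above background on all 8 arrays, and overlapped between strains. That call ended without mutant 1, mutant 3 or parent 8 (adjusted p = 0.0517, 0.0572 and 0.0611), with the same arrays averaged (0.108) and with an offset of 10 (0.0507). PDX3, the oxidase that makes pyridoxal phosphate from pyridoxine or pyridoxamine phosphate, was at -0.32 (adjusted p = 0.232), and between -0.45 and -0.18 with 1 array left out. TPN1, the plasma membrane importer of vitamin B6, was at 0.15 (adjusted p = 0.664), and at -0.12 without parent 2. BUD17, a putative kinase, was at -0.17 (0.420), and YBL036C, a pyridoxal phosphate-binding protein, at -0.25 (0.107).

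**Figure D4:**
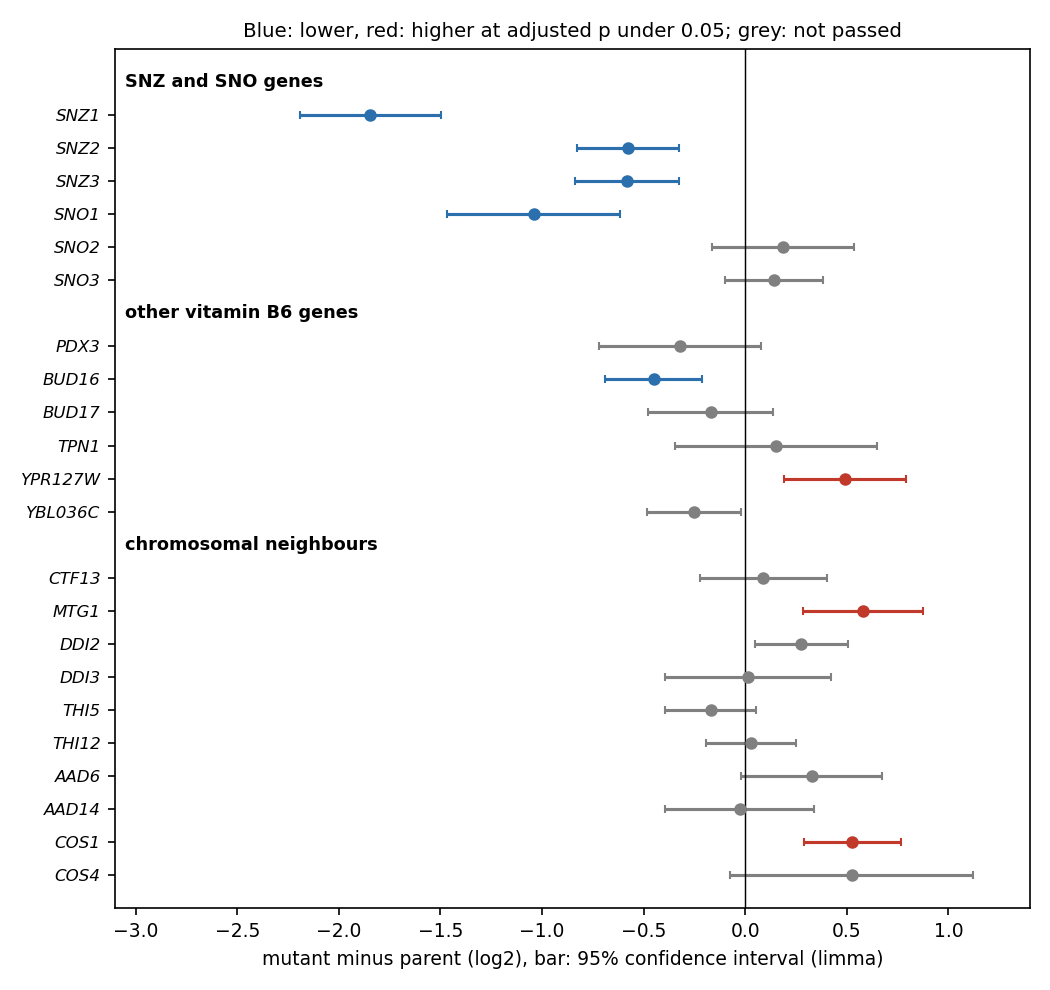
Difference between mutant and parent (horizontal, log2) with its 95% confidence interval from limma, n = 4 arrays per strain, for the SNZ and SNO genes, the other vitamin B6 genes and the chromosomal neighbours. Blue points passed as lower, red as higher and grey did not pass; among the neighbours no point is blue, and MTG1 and COS1 are red.

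Of 10 measured genes beside the SNZ-SNO pairs 2 rose and 0 fell by limma (3 higher and 0 lower at an unadjusted p under 0.05), with a median of 0.18. Beside shares of 12.7% higher and 14.0% lower over all probes, counts this small in a list of 10 do not set the neighbours apart. On chromosome XIII, CTF13, a kinetochore protein gene on the SNO1 side, was at background on all 8 arrays, and MTG1, a GTPase of the mitochondrial ribosome on the SNZ1 side, rose by 0.58 (limma adjusted p = 0.00843). The other pairs sit in a duplicated block near chromosome ends. There THI5 and THI12, which make the pyrimidine part of thiamine, were at -0.17 (adjusted p = 0.258) and 0.03 (0.863), and the sign of THI12 turned under 8 alternatives. Both were above background on 0 mutant and 2 parent arrays, like SNO2 and SNO3. Of the 316 probes of that class 28 passed as lower by limma, beside 14.0% of all probes. The class was picked by detection in the parent only, so it is no neutral reference here either. The limma confidence intervals ran from -0.40 to 0.05 for THI5 and from -0.19 to 0.25 for THI12. Both intervals hold no change as well as a fall, so a fall of THI5 or THI12 cannot be told from no change. The cyanamide hydratase genes DDI2 and DDI3 were at 0.28 (0.0743) and 0.01 (0.969), and the aryl-alcohol dehydrogenase genes AAD6 and AAD14 at 0.33 (0.163) and -0.03 (0.917). AAD6 was at 0.17 without mutant 5 and passed as higher under 4 alternatives. COS1 rose by 0.53 (adjusted p = 0.00417) and COS4 was at 0.52 (0.192). COS4 was at 0.22 without parent 2 and passed with array weights (0.00990). DDI2 and DDI3, and THI5 and THI12, are near-identical copies too, so their probes share the doubt about cross-binding. The signs of DDI3 and AAD14 also turned under other settings.

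Of 19 measured thiamine genes 3 fell and 0 rose by limma (0 higher at an unadjusted p under 0.05), and 16 did not pass, with a median of -0.09. This is 15.8% lower against 14.0% of all probes. The 3 were THI73, a putative carboxylate transporter (adjusted p = 0.000866), THI20, a kinase of thiamine synthesis, at -0.59 (0.00284), and THI4, the thiazole synthase (0.00528). THI73 and THI4 were at background in every mutant sample and are given no size. Most of the list was dim: 2 of the 19 genes were above background throughout the parent samples and 0 throughout the mutant samples.

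Enzymes that use pyridoxal phosphate as cofactor changed in both directions. Of 38 measured, 10 fell, 6 rose and 22 did not pass (limma), with a median of -0.12. That is 26.3% lower and 15.8% higher, against 14.0% and 12.7% of all probes. BAT1, the mitochondrial branched-chain aminotransferase, fell by 2.24 (limma adjusted p = 2.34e-06), and HEM1, the first enzyme of heme synthesis, was at -0.75 (0.00105). GPH1, glycogen phosphorylase, rose by 1.24 (adjusted p = 0.000100), and ALT1, the alanine aminotransferase, was 2.15-fold higher (0.000155). The list of GCN4 and its amino acid targets, which shares 6 genes with the enzymes, had 13 lower, 2 higher and 18 not passing among 33 (limma), with a median of -0.33, or 39.4% lower and 6.06% higher. ILV5 and LEU4, of branched-chain amino acid synthesis, were at -2.60 (adjusted p = 5.92e-08) and -2.57 (1.54e-05). ARG3, of arginine synthesis, was at least 1.48-fold lower (2.76e-05), a bound because no mutant sample had it above background. The bound sets the parent mean against the dimmest signals above background on the mutant arrays. GCN4 itself, named outside the rule for named genes, was at -0.80 and did not pass (adjusted p = 0.117). It ran from -1.02 to -0.42 with 1 array left out, the latter without mutant 5, and passed with array weights (0.0406) and with slide row as a block (0.0230).

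SNZ1 is classed with genes of stationary phase, and these moved both ways. Of 19 such genes measured 8 fell, 6 rose and 5 did not pass (limma), with a median of -0.23. That is 42.1% lower and 31.6% higher, against 14.0% and 12.7% of all probes. GRE1, a hydrophilin, fell by 2.08 (adjusted p = 7.52e-06) and SPG3, needed for survival in stationary phase, was at -0.86 (0.000200). HSP12, a membrane-protecting small heat shock protein, rose by 1.16 (adjusted p = 0.000127), and YGP1, a secreted glycoprotein induced by starvation, was 0.97 higher (0.000146). SNZ1, at -1.84, lay between GRE1 and SPG3 in its difference. Of the 28 passing genes named outside the SNZ-SNO family, 22 lost the call with 75th percentile scaling, 24 with median scaling and 22 within gain 700, and 0 changed sign.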

How the data were processed

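Each sample's RNA (0.5 µg) was labelled with Cy5 and hybridised to 1 array, per the labels' protocols. Per the file headers, arrays were scanned at 635 nm and read with GenePix Pro 6.1.0.4 without normalization, and the deposited scanner files hold spot intensity, a signal-to-noise score and the percent of saturated pixels. A deposited value table holds the authors' processed intensity per probe, on a linear scale and uncentred. Each column ranked probes as its own array's spot medians did (Spearman's rho from 0.998), with column medians of 75.2, 75.1, 78.4 and 79.4 (mutants) and 76.6, 76.1, 77.0 and 75.5 (parents). The sources used here do not give its normalization. It served as an alternative, as log2(value + 50).

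Spot medians were background-corrected (normexp, offset 50, limma 3.58.1, R 4.3.3), taken to log2, quantile-normalized and averaged over 2 spots. Mutant and parent were compared with lmFit and eBayes, two-sided, over all 6256 probes with Benjamini-Hochberg adjustment and no covariate. The offset understates differences of dim genes. The steps were tested on simulated data. The members and lists were chosen with earlier results of these data known. Named were all SNZ and SNO genes, all measured other vitamin B6 genes and neighbours, up to 4 passing genes with the smallest adjusted p of each other list, and 3 genes nearest in profile to each SNZ or SNO gene. AAD16, a neighbour, was not analysed here. Of the 6256 systematic names, 5756 were in the R64 gene table, used for names, chromosomes and gene order only.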

Additional observations from a re-analysis of the deposited data

Results flagged for a closer look

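The SNZ2 level of mutant 5, 6.453 on the normalized log2 scale, stood apart above the other 3 mutant arrays, which lay between 6.31 and 6.33. Its gap to the nearest array made up 0.892 of the range of the group, above Dixon's 95% critical value for 4 samples. Chance marks about 1 in 20 groups, and 12 groups were examined. SNZ2 was not above background on this array, with 6.5 units over local background, and the strain difference of SNZ2 was -0.61 without mutant 5.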

How the results depend on the processing

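No paired analysis was possible because, by replicate number, the strains share none (1, 3, 5 and 7 against 2, 4, 6 and 8). Slide row as a block, which sets 1 mutant beside 1 parent array by position, kept the 4 genes lower. Of 23 alternative settings, 22 of them applied to SNZ2, SNZ3, SNO2 and SNO3, SNZ1 stayed between -1.98 and -1.74, SNO1 between -1.64 and -0.80, SNZ2 between -0.94 and -0.28 and SNZ3 between -0.90 and -0.33. With 75th percentile scaling SNO1 was at -0.80, SNZ2 at -0.55 and SNZ3 at -0.58, and these 3 calls ended, which left 1 gene lower. With median scaling SNZ1 was at -1.98, SNO1 at -0.86, SNZ2 at -0.60 and SNZ3 at -0.64, and 0 genes passed by limma (4 lower at an unadjusted p under 0.05). Those scalings called 57 and 37 of all probes lower and 0 higher, against 873 and 794, and moved the median of all probes from 0.05 to 0.21 and 0.15. The cause was not tested. Scaling to the 75th percentile before the offset, added after the data were seen, kept 4 genes lower. Within gain 700, with 3 arrays, 1 gene passed, and SNO1 at -1.48, SNZ2 at -0.28 and SNZ3 at -0.33 did not. Restricting the fit to probes above background throughout a strain left 2 of the 6 genes in it, both lower. With cyclic loess SNO2 read -3.02e-05 and SNO3 -0.015, and with spot means SNO3 read -0.022, against positive values otherwise, none passing. Leaving out 1 array at a time gave -1.97 to -1.74 for SNZ1, -1.19 to -0.88 for SNO1, -0.67 to -0.52 for SNZ2 and -0.65 to -0.49 for SNZ3, all passing. It gave 0.01 to 0.28 for SNO2 and 0.06 to 0.18 for SNO3. The difference SNZ2 minus SNZ3 read -0.13 without background correction, -0.047 with an offset of 10, -0.0043 with spot means and -0.091 in the authors' table, against 0.00, and none passed. Array weights called 1381 probes lower and 1653 higher. Genes outside the family that did not pass changed sign as follows, with none passing. With 75th percentile and median scaling BUD17 read 0.21 and 0.16 and THI5 0.089 and 0.032. With median scaling TPN1 read -0.027 and BZZ1 -0.012. Within gain 700 TPN1 read -0.16, DDI3 -0.15, AAD14 0.38, COS4 -0.030 and BOI2 0.20. Within gain 600 CTF13 read -0.0027 and THI12 -0.097, and with array weights -0.026 and -0.060. Without background correction, in the authors' table and with 75th percentile scaling before the offset DDI3 read -0.077, -0.021 and -0.085 and THI12 -0.063, -0.0059 and -0.026. With an offset of 10 DDI3 read -0.074 and BOI2 0.0016, with close arrays averaged DDI3 -0.025, with gain as a block AAD14 0.025, and with cyclic loess and spot means THI12 -0.11 and -0.0038. Leaving out 1 array gave -0.12 to 0.28 for TPN1, -0.037 to 0.17 for CTF13, -0.10 to 0.22 for DDI3, -0.026 to 0.077 for THI12, -0.16 to 0.078 for AAD14 and -0.16 to 0.073 for BOI2. Genes that did not pass but did under an alternative were AAD6 in 4, DDI2 in 3, GCN4 in 2, and COS4, YBL036C, GPA2 and NCP1 in 1 each. Signal over background limits SNO2 and SNO3 on all arrays but parents 2 and 4, SNZ2 and SNZ3 on the arrays of gain 700, SNZ2 also on mutant 1, and SNO1 on mutants 5 and 7.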
